A study of Homo sapiens with 18 samples.

Results

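Of the RNAPII promoter peaks, 514 were listed in NT, TAM and TAM + TPL cells and missing from the list of NT + TPL cells. Some of the 514 are neighbours under 1 TAM peak, so they are not all separate promoters. These peaks were chosen by the deposited peak lists themselves: a peak of the NT list was taken when it overlapped, by 1 base or more, a peak of the TAM list and a peak of the TAM + TPL list and no peak of the NT + TPL list. They make up 4.58% of the 11222 peaks of the NT list and 5.38% of the 9551 NT peaks that also had a TAM peak. The loss of a peak is therefore a description of how the set was built, with no replicate check and no test. The RNA values below come from RNA-Seq libraries that the choice did not use.

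The cells are MCF10A-Er-Src, an established human breast epithelial line that carries the viral kinase v-Src fused to the oestrogen receptor, so that tamoxifen switches the kinase on. The 4 groups were NT (no tamoxifen, DMSO), NT + TPL (no tamoxifen, triptolide), TAM (transformed with tamoxifen, DMSO) and TAM + TPL (transformed with tamoxifen, triptolide), each incubated for 4 h at 1 triptolide dose (TPL-125nM in the labels). All 4 groups carry the v-Src fusion, and the NT cells differ in that it was not switched on. The study compared RNAPII occupancy (8 ChIP-Seq samples and 2 inputs, deposited as 1 peak list per group) and RNA (8 RNA-Seq libraries, 2 per group) with and without triptolide in the 2 states.

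To start transcription, RNAPII is loaded at the promoter with the general factors, and TFIIH opens the DNA there through its XPB subunit. Triptolide (TPL) binds XPB and blocks this step, so polymerase that has left a promoter is not replaced. In many human genes the polymerase also pauses shortly after the start, and a ChIP peak at a promoter can hold initiating and paused polymerase. RNAs that are made and destroyed quickly, such as those of cytokines and immediate early genes, fall soonest when initiation stops.

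Depth was even across the RNA-Seq libraries, between 7461309 and 8349448 expected counts. The RNA fitted a basal breast epithelial line: all 10 basal markers had at least 1 FPKM (reads scaled to transcript length and to the mapped reads of the library) in both NT libraries, with summed levels between 17527 and 19218 FPKM. It was 13908 and 10874 FPKM in the NT + TPL libraries. The basal sum was between 8090 and 8308 FPKM in TAM cells and between 4207 and 4598 FPKM in TAM + TPL cells. Luminal markers summed to between 538 and 950 FPKM, fibroblast markers to at most 6.23 FPKM, endothelial markers to at most 2.45 FPKM and immune markers to at most 26.1 FPKM in any library. The part of the change in basal markers in the results below was not tested. Values are relative to each library, so fewer cells and less RNA per cell cannot be told apart. A change shared by most RNAs is also scaled out. The rises and falls below are therefore relative to the other RNAs of a library, and the amount of RNA per cell was not measured here. The names of the peaks in the lists carry the tag of replicate 1 in all 4 lists. They also carry a cutoff of 0.02 in the NT, NT + TPL and TAM + TPL lists and a q of 0.1 in the TAM list, and what this difference in calling does to the TAM list was not tested.

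The promoters below belong to 5 genes named in the results: CXCL2, CXCL3 and F3, which had 3 of the 4 largest falls with TPL in NT cells, and LAMB3 and NEDD4L, which had 2 of the 6 smallest p-values for the difference between the TPL effects of NT and TAM cells. Each line gives the 250 bases before the main start site on the strand of the gene (GRCh37, with start sites of GENCODE release 44). The windows are chr4:74964913-74965162 (minus strand), chr4:74904407-74904656 (minus strand), chr1:95007316-95007565 (minus strand), chr1:209825771-209826020 (minus strand) and chr18:55711208-55711457 (plus strand). Capitals mark exact matches, on either strand, to any of 10 motifs. These were the TATA box with the letters TATAAA, the GC box with the letters GGGCGG, the CCAAT box, an ETS site with the letters CCGGAAG, and an E-box with the letters CACGTG. The others were an AP-1 site with the letters TGACTCA, a CRE with the letters TGACGTCA, a STAT site with the letters TTCCNGGAA, the core of the NRF1 site with the letters CGCATGCG, and part of an NF-kB site with the letters GGNNTTTCC, which was added after the RNA values were seen.
CXCL2: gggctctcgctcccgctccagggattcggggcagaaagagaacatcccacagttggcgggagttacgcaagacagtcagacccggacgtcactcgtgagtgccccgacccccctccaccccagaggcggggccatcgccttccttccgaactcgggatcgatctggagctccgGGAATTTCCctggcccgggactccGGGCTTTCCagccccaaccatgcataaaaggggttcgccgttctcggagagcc
CXCL3: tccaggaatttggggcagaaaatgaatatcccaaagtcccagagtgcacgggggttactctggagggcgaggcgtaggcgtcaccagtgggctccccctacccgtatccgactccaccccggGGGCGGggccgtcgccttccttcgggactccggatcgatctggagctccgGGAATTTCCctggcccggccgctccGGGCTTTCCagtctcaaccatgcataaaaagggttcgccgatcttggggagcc
F3: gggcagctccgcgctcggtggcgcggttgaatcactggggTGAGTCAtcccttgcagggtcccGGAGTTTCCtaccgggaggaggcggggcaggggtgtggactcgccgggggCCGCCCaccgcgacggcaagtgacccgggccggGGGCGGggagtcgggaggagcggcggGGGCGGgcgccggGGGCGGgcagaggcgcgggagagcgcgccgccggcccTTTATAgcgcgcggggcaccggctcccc
LAMB3: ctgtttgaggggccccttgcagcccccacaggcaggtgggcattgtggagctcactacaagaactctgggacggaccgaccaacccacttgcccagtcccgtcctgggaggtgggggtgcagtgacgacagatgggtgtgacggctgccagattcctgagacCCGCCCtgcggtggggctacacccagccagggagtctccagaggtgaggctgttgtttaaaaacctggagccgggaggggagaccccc
NEDD4L: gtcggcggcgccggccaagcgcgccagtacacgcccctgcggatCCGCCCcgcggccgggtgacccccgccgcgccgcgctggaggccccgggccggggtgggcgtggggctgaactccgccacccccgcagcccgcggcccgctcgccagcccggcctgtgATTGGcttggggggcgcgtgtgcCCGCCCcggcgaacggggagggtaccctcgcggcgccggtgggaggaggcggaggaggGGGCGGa

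CXCL2 and CXCL3, which lie in 1 chemokine cluster, both held a pair of NF-kB matches close to the start, whose first bases lay at -77 and -53 in CXCL2 and at -78 and -53 in CXCL3, counted from the start site at 0. F3 had a TATA box whose first base was at -28, an AP-1 match at -210, an NF-kB match at -187 and 4 GC boxes. LAMB3 had 1 GC box in these letters, and NEDD4L had 3 GC boxes and a CCAAT box. Over the 300 bases from 250 before to 50 after the main start, 376 protein-coding genes of the set could be read. Of these, 82.7% held a GC box, against 61.4% of all 19894 protein-coding promoters and 76.5% of the 7064 promoters whose peak was kept in both states. The ETS letters stood in 12.8% of them, against 14.1% of all promoters, 28.3% of kept promoters and 7.77% of promoters whose peak was lost in both states. The TATA box stood in 5.05%, against 9.62% of all, 4.60% of kept promoters and 3.07% of promoters whose peak was lost in both states. The CCAAT box stood in 30.3%, against 36.0%, 37.3% and 26.6% in the same order. The promoters of all genes include those with no NT peak. The other shares, beside those of all and of kept promoters, were 12.5% for the E-box (8.76% and 11.3%), 4.79% for AP-1 (3.56% and 2.07%) and 4.52% for CRE (2.68% and 4.29%). In the same order, they were 0.798% for STAT (1.2% and 1.37%), 1.6% for the NRF1 core (2.85% and 5.72%) and 4.26% for the NF-kB letters (6.43% and 7.23%). Median GC content was 70.7%, against 66% at kept promoters and 71.3% at promoters lost in both states. These shares describe letters in a window, and no test was made on them.

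In NT cells the peaks had a median width of 564 bases, with quartiles at 356 and 913 bases and a range from 149 to 46310 bases. In TAM cells the overlapping peaks had a median width of 452 bases, and in TAM + TPL cells 269 bases. Where several peaks of another list overlapped 1 NT peak, their widths were summed, and a peak that overlapped several NT peaks counted for each. The peaks that were kept in both states had a median width of 780 bases in untreated and 653 in treated NT cells, and of 528 and 531 in TAM cells. The median ratio of the TAM + TPL width to the TAM width was 0.652 in the set and 1.03 at kept peaks, and 114 of the 514 peaks were wider with TPL. The lower quartile of these TAM + TPL peaks was 195 bases, and the narrowest was 143 bases. At kept peaks the narrowest TAM + TPL peak also had 143 bases, while the narrowest NT + TPL peak had 169 bases. Some TAM + TPL peaks of the set, such as those of RBM15 and MIA3 (143 bases each), were narrower than that. What this difference in minimum width between the lists does to the choice of the set was not tested. The 514 peaks that were lost only in TAM cells, the mirror image of this set, also narrowed where they were kept. Their median width was 532 bases in NT and 324 bases in NT + TPL cells.

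**Figure D1:**
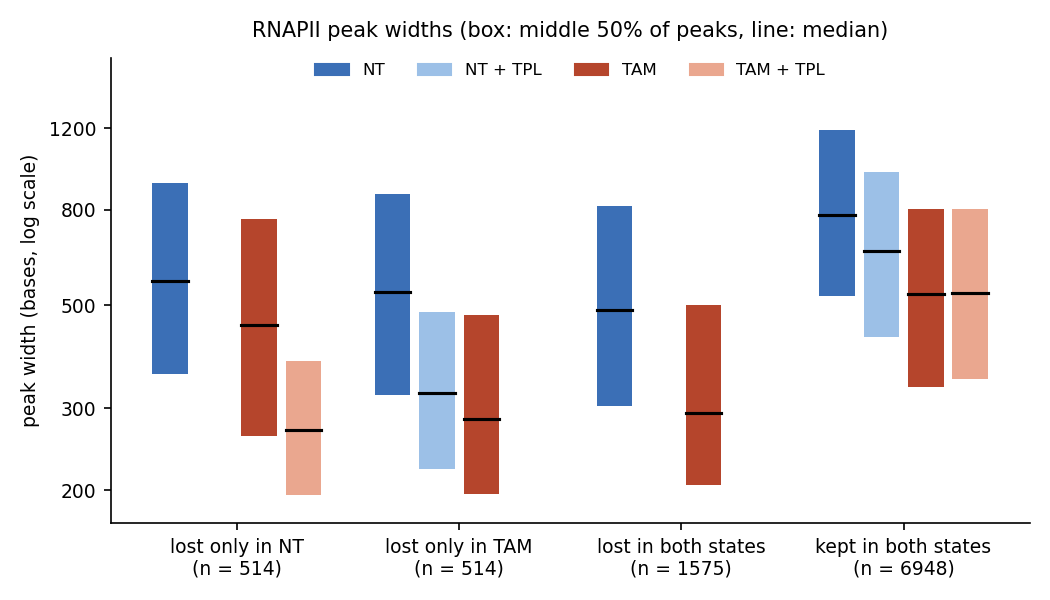
Widths of RNAPII peaks in the 4 deposited lists (y axis, bases, log scale) for 4 sets of NT peaks that were shared with TAM cells, with boxes from the lower to the upper quartile, lines at the median and no box where the set has no peak in that list. In the set lost only in NT cells the median goes from 452 bases in TAM to 269 in TAM + TPL, while at kept peaks it is 528 and 531.

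Among the 359 peaks with a single main protein-coding start, the centre of the peak lay at a median of 53 bases after the start in NT, 41.5 in TAM and 11.5 in TAM + TPL. From TAM to TAM + TPL the centre moved by a median of -27.5 bases, that is upstream, and it moved upstream in 230 of the 359 peaks (64.1%). At kept peaks the median move was 10.5 bases and 44.8% moved upstream. Starts on both strands stood in 73 of the peaks (14.2%), against 33.3% of kept peaks and 12.2% of peaks lost in both states. Of the 514 peaks, 435 lay over 5000 bases from any NT + TPL peak, with a median distance of 70168 bases, while 64 lay within 1000 bases and 15 within 100. Just inside, a peak with no annotated start (chr1:52343732-52343984) lay 5 bases from an NT + TPL peak, the peak at the start of HSP90AA1 and WDR20 (chr14:102605554-102606083) 33 bases, and that of PTTG1IP (chr21:46293792-46295153) 40 bases. Just outside, the peak of TRIM24 (chr7:138144993-138145296) overlapped one by 27 bases and that of FAM135A (chr6:71123134-71123426) by 43 bases.

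The 5 widest peaks of the set covered a gene whole or, at S100A2, for 87.0% of its length. The NT peak at LAMB3, the beta-3 chain of laminin 332 that anchors basal cells, spanned 46310 bases (chr1:209781371-209827680) and held the whole gene of 37556 bases. The TAM peak there had 44405 bases, the TAM + TPL peaks 794 bases in all, of which 500 lay across the start and 294 began 964 bases after it, and the nearest NT + TPL peak was 129202 bases away. At F3, which codes for tissue factor, the trigger of blood clotting, the NT peak had 17431 bases (chr1:94991622-95009052), the TAM peak 13845 and the TAM + TPL peak 379. S100A2, a calcium-binding protein of epithelia, had 10565 bases in NT, 8632 in TAM and 199 in TAM + TPL. The peak over CSF3, the granulocyte colony-stimulating factor, also held a secondary start of MED24, a Mediator subunit, and had 8853, 8773 and 572 bases. KRT6A, a keratin of basal and activated epithelium, had 8108, 11344 and 344 bases. All 5 peaks were thus reduced to short stretches in TAM + TPL and were absent from the NT + TPL list.

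**Figure D2:**
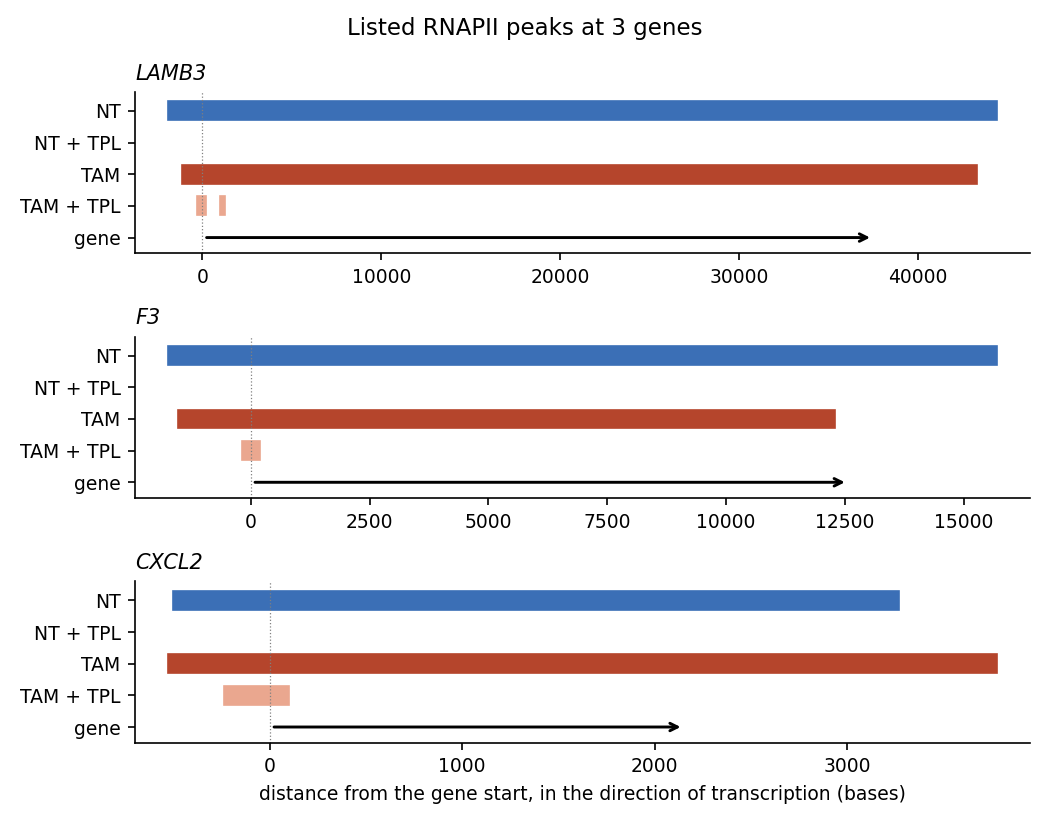
Extent of the listed RNAPII peaks at LAMB3, F3 and CXCL2 in each list, as distance from the gene start in the direction of transcription (x axis, bases). The arrow is the gene. At all 3 genes the NT peak spans the gene, the TAM peak spans LAMB3 and CXCL2 and ends 12302 bases after the start in the 12587 bases of F3, the TAM + TPL peaks (500 and 294 bases at LAMB3, 379 at F3, 340 at CXCL2) lie at or near the start, and there is no NT + TPL peak.

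The peaks held annotated start sites of 557 genes, of which 454 were protein-coding and 89 long non-coding. The main start of the gene was in the peak for 457 of them, 54 had another start in an NT + TPL peak, and 54 of the peaks held no start in this annotation. RNA reads were found for 489 of the genes, and 471 passed the filter on low counts and were tested. Their median level was 9.04 and 9.94 FPKM without TPL and 7.04 and 6.02 with it in the NT cells, and 10.2 and 9.98 without and 6.68 and 6.91 with it in the TAM cells.

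Among the genes called with TPL, more fell than rose in both states. A change was called where the adjusted p did not exceed 0.001 and the log2 change, up or down, was 1.2 or more. By this rule 89 of the 471 (18.9%) fell in NT cells, where 8.40% of all 15754 genes tested did, and 14 (2.97%) rose, against 4.32%. In TAM cells, where the peak is still listed, 95 (20.2%) fell, against 7.31% of all genes, and 10 (2.12%) rose, against 3.95%. Over the 471 genes the change had a median of -0.45 (NT) and -0.48 (TAM) on the log2 scale, beside 0.10 and 0.05 over all genes. At an adjusted p of 0.05 with no minimum fold, 198 fell and 77 rose in NT cells (backgrounds 24.1% and 23.5%), and 210 fell and 54 rose in TAM cells (backgrounds 23.5% and 20.4%). In all, 66 genes fell in both states, which is 74.2% of the NT calls and 69.5% of the TAM calls, 5 rose in both, and 0 were called in opposite directions. The same overlap over all genes tested was not worked out, so whether it is particular to the set is not shown.

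Genes of peaks lost in both states had 252 of 1257 tested called lower in NT and 245 (19.5%) in TAM cells. Genes of kept peaks had 9.56% and 7.85%, and genes of peaks lost only in TAM cells 9.67% and 9.67%. The mirror-image set had median log2 fold changes of -0.01 in NT and -0.27 in TAM cells. No test was made between these sets, and genes with several starts can belong to more than 1 of them. Leaving out 1 library left between 64 (without NT replicate 2) and 144 calls of either direction in NT cells. In TAM cells the 105 calls became 45 and 48 without TAM replicate 1 or 2, and 31 and 32 without TAM + TPL replicate 1 or 2. When the rows of the deposited files were fitted as they stand, without summing the rows of a gene, fewer were called throughout: 38 of 528 rows (7.2%, all rows 2.71%) fell and 8 rose in NT, and 36 (6.82%, all rows 2.04%) fell and 0 rose in TAM cells.

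**Figure D3:**
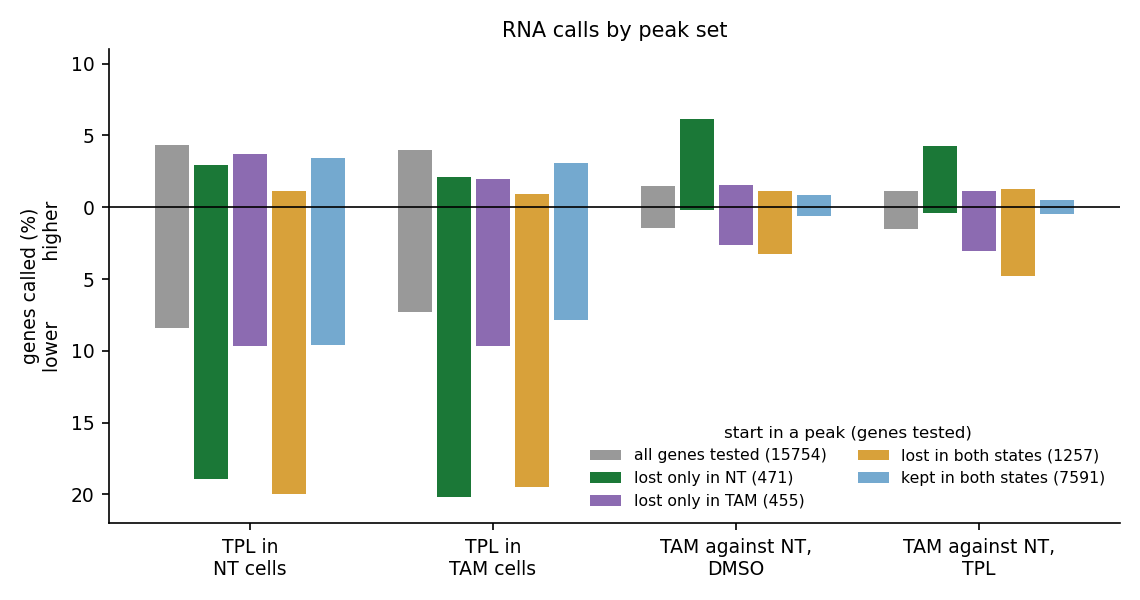
Share of genes called higher (above 0) and lower (below 0) in RNA, in percent, for 4 comparisons (x axis) and for all genes tested and genes that start in 4 sets of NT peaks. In genes of peaks lost only in NT cells, 18.9% fell with TPL in NT and 20.2% in TAM cells, and 6.16% were higher in TAM than in NT cells with DMSO, against 1.47% of all genes.

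The difference between the TPL effects of the 2 states was tested directly for each gene. Among the 471 genes, 0 were called with a higher effect in TAM cells (0.0127% of all genes) and 1 with a lower effect, NEDD4L (0.00635% of all genes). At an adjusted p of 0.05, 5 had a higher effect in TAM cells and 10 a lower one, where 0.482% and 0.368% of all genes did. At an unadjusted p of 0.05, 86 of the 471 passed, beside 1918 of all 15754 genes. DESeq2 called 12 genes of the set, 4 higher and 8 lower, and its share over all genes was not worked out. The median difference over the set was -0.05 on the log2 scale.

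**Figure D4:**
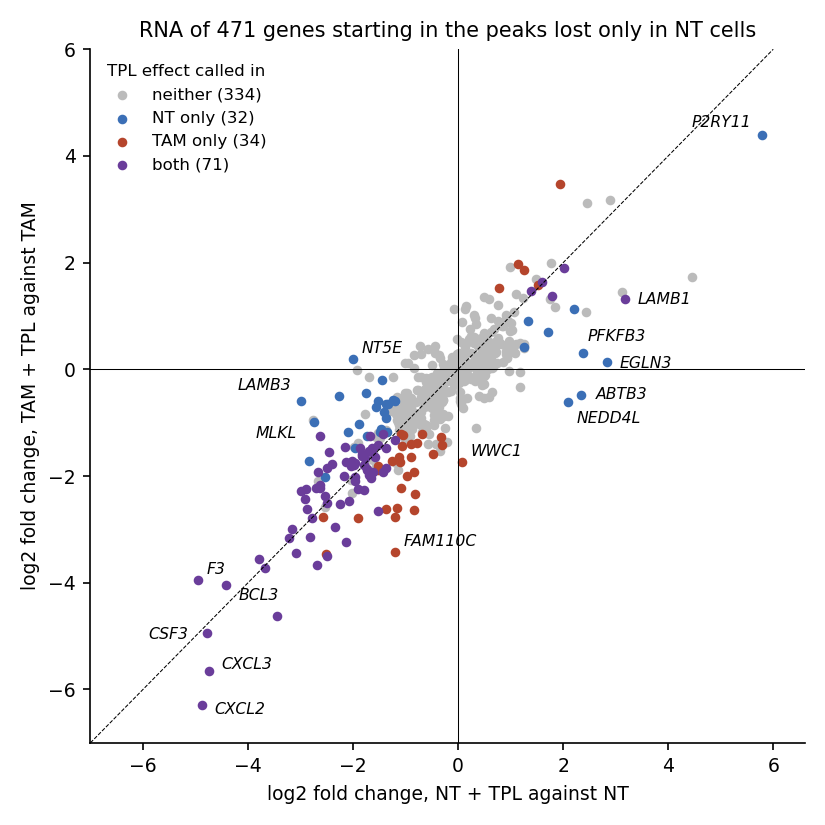
Log2 fold change of RNA with TPL in NT cells (x axis) and in TAM cells (y axis) for the 471 tested genes that start in the peaks lost only in NT cells. Colours give the states in which the change was called, and the dashed line marks equal changes. In both states 66 genes fell and 5 rose, and LAMB3 and NT5E lie above the line while NEDD4L, ABTB3, PFKFB3 and WWC1 lie below it.

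Secreted signals were among the largest falls. CXCL2 and CXCL3 code for chemokines that draw neutrophils. CXCL2 had 181 and 167 FPKM without TPL and 8.34 and 3.69 with it in NT cells, and 388 and 398 without and 5.4 and 4.94 with it in TAM cells, and the log2 fold change with TPL was -4.87 (SE 0.282, adjusted p = 1.01e-06) in NT and -6.30 (SE 0.297, adjusted p = 4.77e-07) in TAM cells. CXCL3 had 43.8 and 50.6 FPKM without TPL and 1.86 and 1.71 with it in NT cells, and 249 and 233 without and 5.92 and 3.88 with it in TAM cells, with log2 fold changes of -4.74 (SE 0.255, adjusted p = 7.63e-07) and -5.66 (SE 0.232, adjusted p = 3.57e-07). CSF3 had 31.6 and 32.2 FPKM without TPL and 1.55 and 0.750 with it in NT cells, and 255 and 240 without and 9.93 and 6.72 with it in TAM cells, with log2 fold changes of -4.78 (SE 0.299, adjusted p = 1.29e-06) and -4.94 (SE 0.250, adjusted p = 5.33e-07). In all 3 genes each treated library lay below both controls of its state. The 2 chemokine genes are close copies, so reads may be shared between them. CCL20, a chemokine for lymphocytes and dendritic cells, was less even: it had 54.3 and 46.8 FPKM without TPL and 12.7 and 42.7 with it in NT cells (log2 fold change -0.86, not called), and 134 and 173 without and 88.4 and 95.7 with it in TAM cells (-0.79, adjusted p = 0.112). These 3 chemokines are the members of a list of 26 NF-kB and inflammatory genes, of which 21 were tested, with 9 lower and 1 higher in NT and 10 lower and 1 higher in TAM cells.

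BCL3, a nuclear partner of NF-kB, had 57.7 and 43.8 FPKM without TPL and 3.14 and 1.63 with it in NT cells, and 191 and 176 without and 13.8 and 9.07 with it in TAM cells, with log2 fold changes of -4.42 (SE 0.306, adjusted p = 1.99e-06) in NT and -4.05 (SE 0.274, adjusted p = 2.52e-06) in TAM cells. RREB1, a zinc finger factor that answers to Ras signalling, fell from 10.8 and 16.1 to 1.71 and 0.780 FPKM in NT cells and from 29.8 and 23.8 to 1.05 and 1.17 in TAM cells, with log2 fold changes of -3.44 and -4.62 (adjusted p = 9.53e-06 and 2.66e-06). Of a list made for immediate early genes, the first to respond to growth signals, DUSP3, FOSL2 and KLF10 start in the set. The list took in every symbol that starts with DUSP or KLF, and whether each of these is an immediate early gene was not checked. DUSP3, a phosphatase of MAP kinases, fell in both states (log2 fold changes of -2.40 and -1.78, adjusted p = 3.22e-06 and 1.91e-05). FOSL2, an AP-1 subunit, fell in NT cells (-1.97, adjusted p = 8.85e-04) and had -1.47 (adjusted p = 0.00490) in TAM cells, and KLF10 fell in TAM cells (-1.59, adjusted p = 5.06e-04) and had -0.48 (adjusted p = 0.135) in NT cells. KLF10 has another start in an NT + TPL peak. Over all 47 tested genes of this list, 25 fell and 3 rose in NT and 21 fell and 3 rose in TAM cells.

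F3 and THBD, both surface proteins of blood clotting, fell in both states. F3 had 392 and 456 FPKM without TPL and 11.2 and 16.7 with it in NT cells, and 265 and 296 without and 20.9 and 16.5 with it in TAM cells, with log2 fold changes of -4.95 (SE 0.255, adjusted p = 7.63e-07) and -3.95 (SE 0.243, adjusted p = 1.70e-06). THBD, thrombomodulin, which restrains clotting, had 27.9 and 32.2 FPKM without TPL and 2.83 and 1.55 with it in NT cells, and 46.4 and 44.2 without and 3.20 and 4.73 with it in TAM cells, with log2 fold changes of -3.79 (SE 0.268, adjusted p = 2.19e-06) and -3.56 (SE 0.257, adjusted p = 3.23e-06). For neither gene did the 2 effects pass the test of their difference (adjusted p = 0.202 and 0.838). The groups with and without TPL did not overlap in either state.

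**Figure D5:**
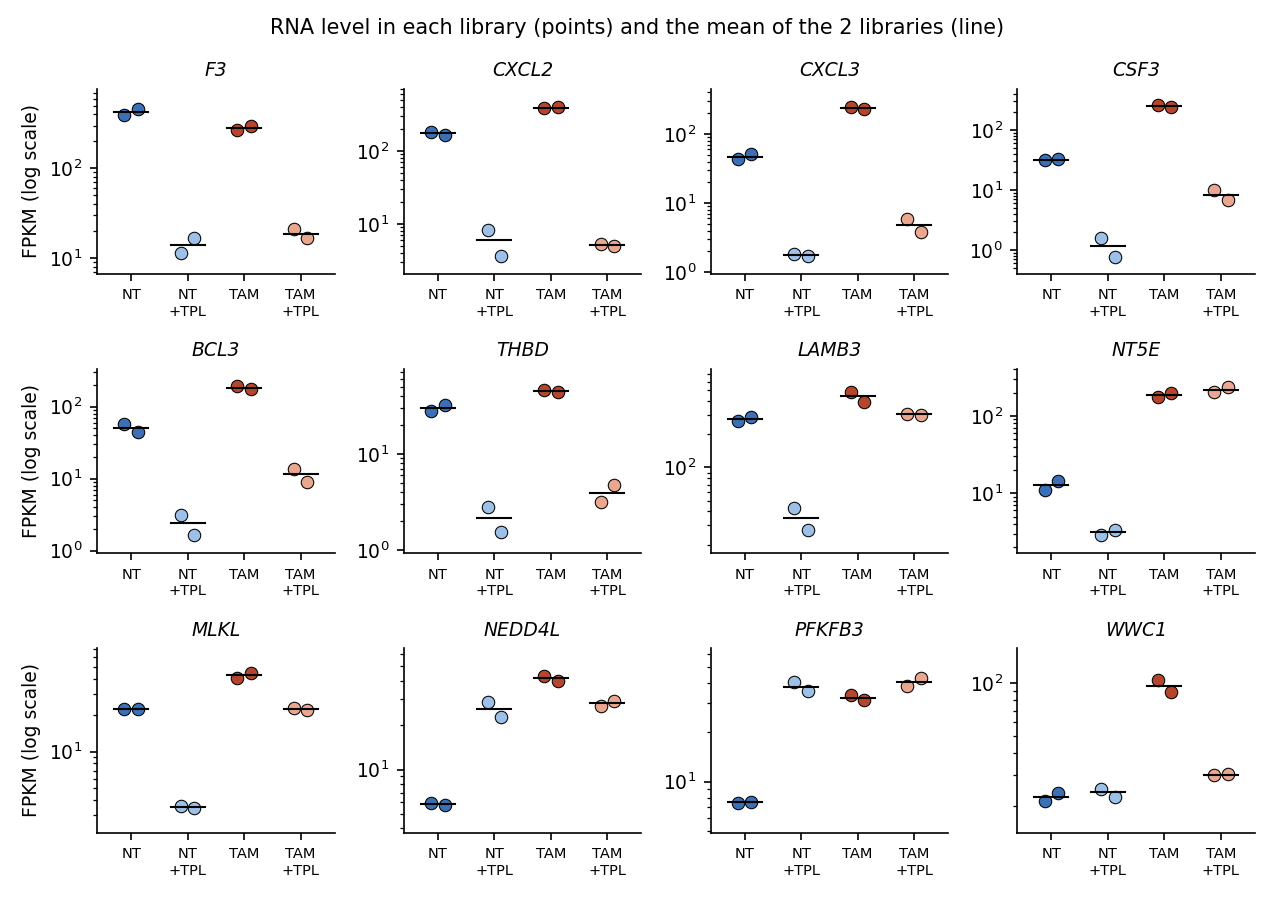
RNA level (y axis, FPKM, log scale) of 12 genes of the set in each of the 8 libraries, by group (x axis). Points are libraries and lines the mean of 2 libraries. F3, CXCL2, CXCL3, CSF3, BCL3 and THBD are low in both treated groups, while LAMB3 is at 42.5 and 27.0 FPKM in NT + TPL and at 306 and 299 in TAM + TPL.

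LAMB3, under the widest peak, and NT5E had a difference between the states that passed an adjusted p of 0.05 and missed the call. LAMB3 had 266 and 286 FPKM without TPL and 42.5 and 27.0 with it in NT cells, and 488 and 396 without and 306 and 299 with it in TAM cells. The RNA fell in NT cells (-3.0 on the log2 scale, SE 0.220, adjusted p = 2.63e-06), whereas the log2 fold change was -0.59 (SE 0.203, adjusted p = 0.0342) in TAM cells. The difference, 2.41 (SE 0.291), had an adjusted p of 0.00429, between 5.12e-13 and 0.0522 over the alternatives run. NT5E, an ectoenzyme that makes adenosine outside the cell, had 11 and 14.3 FPKM without TPL and 2.92 and 3.39 with it in NT cells, and 177 and 197 without and 201 and 235 with it in TAM cells. It fell in NT cells (-2.0, SE 0.209, adjusted p = 2.59e-05) and had 0.19 (SE 0.182, adjusted p = 0.423) in TAM cells, a difference of 2.19 (SE 0.277, adjusted p = 0.00449, between 2.79e-11 and 0.0586 over the alternatives). Each NT + TPL library thus lay below both NT libraries at both genes, and in TAM cells the treated NT5E libraries lay above the controls.

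In NEDD4L the effect was lower in TAM than in NT cells by the call rule, and in ABTB3, PFKFB3 and WWC1 at an adjusted p of 0.05 alone. NEDD4L, a ubiquitin ligase that removes ion channels from the surface, had 5.92 and 5.79 FPKM without TPL and 28.5 and 22.6 with it in NT cells, and 42.9 and 39.7 without and 27.1 and 29.1 with it in TAM cells. It rose by 2.10 (SE 0.168, adjusted p = 4.67e-06) in NT cells and had -0.61 (SE 0.159, adjusted p = 0.00974) in TAM cells, a difference of -2.71 (SE 0.231, adjusted p = 5.45e-04). Over the alternatives run for this gene that adjusted p lay between 1.36e-22 and 0.0246. ABTB3, a BTB domain protein, had 0.910 and 1.07 FPKM without TPL and 5.19 and 5.24 with it in NT cells, and 13.8 and 14.3 without and 9.42 and 9.76 with it in TAM cells, and its difference was -2.82 (SE 0.297, adjusted p = 0.00207, over the alternatives up to 0.0301). PFKFB3, an enzyme that speeds up glycolysis, had 7.46 and 7.56 FPKM without TPL and 40.2 and 35.4 with it in NT cells, and 33.4 and 31.3 without and 38.3 and 42.5 with it in TAM cells, with a difference of -2.08 (SE 0.225, adjusted p = 0.00240, over the alternatives up to 0.0343). In these 3 genes both untreated NT samples were the lowest of the 8. WWC1, a scaffold of the Hippo pathway, had 21.4 and 23.8 FPKM without TPL and 25.2 and 22.7 with it in NT cells, and 105 and 89.6 without and 30.0 and 30.5 with it in TAM cells. It fell in TAM cells (-1.74, SE 0.163, adjusted p = 1.6e-05), had 0.08 (adjusted p = 0.704) in NT cells, and the difference of -1.81 (SE 0.228) had an adjusted p of 0.00438, over the alternatives up to 0.0524. NEDD4L and PFKFB3 each have another start in an NT + TPL peak, and the start of PFKFB3 in this set is not its main start.

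Rises with TPL were fewer than falls. In NT cells LAMB1, a laminin chain of other basement membranes, rose from 23.4 and 31.1 to 301 and 198 FPKM (3.18, SE 0.235, adjusted p = 2.75e-06), and in TAM cells from 140 and 130 to 310 and 386 (1.31, SE 0.219, adjusted p = 6.89e-04). ACSL1, which activates fatty acids, rose from 29.1 and 34.3 to 178 and 118 FPKM in NT cells (2.20, SE 0.212, adjusted p = 1.57e-05) and had 1.13 (SE 0.207, adjusted p = 0.00131) in TAM cells. EGLN3, an oxygen-sensing prolyl hydroxylase, had 0.730 and 0.230 FPKM in NT and 2.66 and 3.57 in NT + TPL (2.84, SE 0.414, adjusted p = 2.55e-04), and ABTB3 rose by 2.34 (SE 0.229, adjusted p = 1.72e-05). PFKFB3 rose by 2.38 (SE 0.167, adjusted p = 2.09e-06). P2RY11 was listed at 1.39 and 0 FPKM in NT and at 25.5 and 51.0 in NT + TPL, but it overlaps PPAN and its reads may be shared with that gene, so its value is uncertain. In TAM cells the 6 largest rises were those of PARD6G-AS1 (3.48, adjusted p = 9.66e-04), D2HGDH (1.98, adjusted p = 8.37e-04), MANBA (1.90, adjusted p = 8.82e-05), ZNF566-AS1 (1.86, adjusted p = 2.53e-04), RBM15 (1.63, adjusted p = 2.79e-04) and RASEF (1.58, adjusted p = 8.08e-04). Without TAM replicate 1 or 2 or TAM + TPL replicate 1 or 2, 0 of the 10 rises in TAM cells were called, and over the alternatives the adjusted p of PARD6G-AS1 reached 0.0161 and that of D2HGDH 0.0168. D2HGDH and MANBA are a mitochondrial and a lysosomal enzyme, RBM15 belongs to the complex that methylates RNA and has another start in an NT + TPL peak, and RASEF is a small GTPase. The 2 antisense RNAs overlap or adjoin other genes, and whether the counts used strand is not given in the sources used here.

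None of the 5 RNAs of the set with the highest mean FPKM over the 8 libraries was called with TPL. IFITM3, which blocks viruses at membranes, had 3812 and 3042 FPKM without TPL and 4370 and 3878 with it in NT cells, and 3657 and 3848 without and 4579 and 3681 with it in TAM cells, and log2 fold changes of 0.26 (SE 0.182, adjusted p = 0.260) in NT and 0.09 (SE 0.182, adjusted p = 0.706) in TAM cells. KRT6A had 4101 and 3969 FPKM without TPL and 2265 and 1450 with it in NT cells, and 4062 and 4623 without and 2400 and 2190 with it in TAM cells, with log2 fold changes of -1.14 (SE 0.204, adjusted p = 0.00102) and -0.97 (SE 0.203, adjusted p = 0.00290). The treated libraries of KRT6A lay below the controls in both states, although neither change met the call. IFITM2, a close copy of IFITM3 with which it may share reads, had 0.59 (SE 0.175, adjusted p = 0.0162) and 0.28 (SE 0.174, adjusted p = 0.217), and GRINA, a membrane protein that limits cell death, had 0.62 (SE 0.195, adjusted p = 0.0212) and 0.14 (SE 0.195, adjusted p = 0.585). MALAT1, a nuclear long non-coding RNA, was uneven between replicates and has another start in an NT + TPL peak, with 490 and 298 FPKM in NT and 295 and 1193 in NT + TPL. Its log2 fold change of 0.94 (SE 0.504, adjusted p = 0.145) became -0.45 without NT + TPL replicate 2. S100A2, under 1 of the widest peaks, had 1286 and 1023 FPKM without TPL and 613 and 1077 with it in NT cells, and 554 and 633 without and 284 and 358 with it in TAM cells, and log2 fold changes of -0.45 (adjusted p = 0.177) and -0.94 (adjusted p = 0.0143).

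The set makes up 4.58% of the NT peaks, and no test was made of the number of its genes in each list below. Whether a count of 0 is particular to a list is therefore not shown. It held 0 of 104 respiratory chain genes with an NT peak, 0 of 78 mitochondrial ribosomal proteins, 0 of 61 replication-dependent histones and 0 of 45 proteasome genes. It also held 0 of 32 SR proteins and hnRNPs, 0 of 25 TFIIH and RNAPII subunits, 0 of 23 snoRNA host genes and 0 of 11 p53 targets. Of 79 cytosolic ribosomal proteins with an NT peak it held 1, RPL26L1 (0.37 in NT and 0.21 in TAM, not called). The set held 24 zinc finger genes, of 393 with an NT peak. With TPL 3 of them fell in NT and 6 in TAM cells, and 0 rose, with medians of -1.03 and -0.90. Over all 538 zinc finger genes tested the medians were 0.05 and 0.27, with 40 lower and 17 higher in NT and 37 lower and 23 higher in TAM cells. ZNF593, a zinc finger protein of the nucleolus, fell in both (-1.53 and -1.41, adjusted p = 1.56e-04 and 3.37e-04), and ZNF146 had -1.05 and -0.70 (adjusted p = 6.37e-04 and 0.00744). The next 3 lists were also made from symbols, and whether each gene has the role named was not checked. Of 11 genes with ubiquitin-related symbols (starting USP, UBE2, RNF, TRIM, FBXO or KLHL), RNF44, TRIM14, TRIM35 and UBE2Q2 fell in both states. Their log2 fold changes lay between -2.79 and -1.66. UBE2E1 and FBXO25 had -0.16 and -0.26 in NT cells (not called). ZNF146, RPL26L1 and UBE2E1 each have another start in an NT + TPL peak. Of the 268 tested genes with these ubiquitin-related symbols, 28 fell and 12 rose in NT and 24 fell and 12 rose in TAM cells. Of 17 genes listed for transport and trafficking (symbols starting SLC, RAB, TMEM or VPS), 1 (RAB11FIP5) fell in each state. TMEM219, TMEM161A and SLC35D2, the most abundant, were not called. Of the 571 tested in all, 33 fell and 18 rose in NT and 29 fell and 26 rose in TAM cells. Of 15 tested RNAs from a list of antisense and divergent non-coding RNAs, which also took in symbols starting LINC, 1 rose and 1 fell in NT and 3 rose in TAM cells. KDM7A-DT rose in both (1.78 and 1.38, adjusted p = 7.33e-05 and 2.97e-04), and DLGAP1-AS2 had 0.44 and 0.40 (not called). Over all 1018 tested, 41 rose and 9 fell in NT and 46 rose and 5 fell in TAM cells. TAF4B, a TFIID subunit, and MED24 were not called with TPL in either state (-0.29 and -0.63 in NT, 0.10 and -0.50 in TAM cells), and of 62 such genes 4 fell and 2 rose in NT and 4 fell and 3 rose in TAM cells.

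The genes were also split by the width of the NT peak, with no test between the classes. Of the 37 tested genes with an NT peak of at least 2000 bases, 16 fell with TPL in NT and 14 in TAM cells, with medians of -0.86 and -0.79 and a median NT level of 34.9 FPKM. Of the 187 with an NT peak under 500 bases, 29 fell in NT and 34 in TAM cells, with medians of -0.31 and -0.37 and a median NT level of 7.23 FPKM. The 73 genes with peaks from 1000 to under 2000 bases had 20 and 19 falls and medians of -0.83 and -0.64, and the 174 with peaks from 500 to under 1000 bases 24 and 28 falls and medians of -0.34 and -0.45. The share that fell in NT cells was thus not ordered by width below 1000 bases. Width and RNA level moved together here, and their parts in the falls were not tested apart. Of 15 tested genes whose promoter held the NF-kB letters, 8 fell in NT and 7 in TAM cells, with medians of -1.62 and -1.09. Of 47 with an E-box, 16 fell in each state, with medians of -0.71 and -0.87. The TATA box (18 genes, -0.81 and -0.68), AP-1 (17 genes, -0.83 and -0.54) and CRE (17 genes, -0.79 and -0.58) also had medians below those of the set. The GC box (307 genes, -0.48 and -0.54), the CCAAT box (113 genes, -0.42 and -0.43) and ETS (45 genes, -0.25 and -0.41) lay closer to or above them, and STAT and the NRF1 core stood in 3 and 6 tested genes. The width classes and the NF-kB letters were set with the RNA values known. CXCL2, CXCL3 and F3, whose falls were known by then, are among the 15 genes with the NF-kB letters. The shares that fell among all genes with the same motif or peak width were not worked out. Whether these counts are particular to the set is therefore not shown.

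Without TPL, the RNA of the set was more often higher in TAM than in NT cells. With DMSO 29 of the 471 genes (6.16%) were higher in TAM cells, where 1.47% of all genes were, and 1, GRAMD2B, was lower (-1.74, adjusted p = 5.19e-04), where 1.48% of all genes were. With TPL, 20 (4.25%) were higher, against 1.11% of all, and 2 were lower, ACSL1 (-1.58) and GRINA (-1.36), against 1.49%. Of the genes of kept peaks, 0.830% were higher and 0.632% lower in TAM cells with DMSO, and of the mirror-image set 1.54% were higher and 2.64% lower. At an adjusted p of 0.05 with no minimum fold, 64 genes of the set were higher with DMSO (13.6%, all genes 5.16%) and 17 lower (3.61%, all genes 5.59%). With TPL at that threshold, 58 were higher (12.3%, all genes 4.82%) and 39 lower (8.28%, all genes 7.06%). The comparisons share libraries with those above, so the values stand side by side and are not independent. The 29 genes included NT5E (3.9, SE 0.207, adjusted p = 3.76e-07), ABTB3 (3.77, SE 0.228, adjusted p = 1.09e-06), CSF3 (2.96, SE 0.223, adjusted p = 6.09e-06), NEDD4L (2.83, SE 0.172, adjusted p = 1.09e-06), CXCL3 (2.36, SE 0.189, adjusted p = 8.84e-06), LAMB1 (2.33), PFKFB3 (2.15), WWC1 (2.12) and BCL3 (1.87). Also among them, and named after their values were seen, were receptors and sensors of inflammatory signals: IFNGR1 (1.37), a chain of the interferon gamma receptor, IL1R1 (1.63), the interleukin-1 receptor, MYD88 (1.44), its adaptor, and IFI16 (1.61), a sensor of DNA. With TPL the largest difference of the named genes was that of NT5E (6.09, SE 0.235, adjusted p = 2.95e-08), and LAMB3, which had 0.69 (adjusted p = 0.0518) with DMSO, was higher in TAM cells by 3.10 (SE 0.220, adjusted p = 3.30e-06). The 30 calls with DMSO became 13 and 18 without NT replicate 1 or 2 and 14 and 13 without TAM replicate 1 or 2. The 22 calls with TPL became 10 and 11 without TAM replicate 1 or 2, and 8 and 9 without TAM + TPL replicate 1 or 2.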

How the data were processed

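The peaks, gene lists, motifs and tests were chosen with earlier results of these data known. RNAPII was precipitated in 2 biological replicates per group. The authors mapped these reads to hg19 and called enrichment over input with MACS 1.4.2, and the deposited lists, 1 per group, give only starts and ends of peaks that hold a start site, with no score or depth. All 24 chromosomes of the lists had peak ends within the lengths of GRCh37 (3 of the 514 peaks lay on alternate sequences). Start sites came from GENCODE release 44 on build 37, and promoter sequence from GRCh37; 1 promoter is not reported here.

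For RNA, the authors aligned poly-A reads to transcripts with Bowtie2 and deposited RSEM expected counts per gene, without normalization, and RSEM's FPKM, scaled to transcript length and library. Absent genes were taken as 0. Of 23604 rows, 120 matched no gene of the RefSeq table (GRCh38.p14, used for names only), and rows of the same gene were summed, giving 21697 genes, of which 1067 had more than 1 row. This summing of rows was chosen after the files were seen. After rounding, edgeR 4.0.16 (R 4.3.3) was fitted to the expected counts (TMM factors between 0.975 and 1.03, filterByExpr, quasi-likelihood test, Benjamini-Hochberg adjustment over all 15754 genes tested) in 1 fit of the 4 groups. The common dispersion was 0.032. The test was checked on simulated counts. Standard errors and adjusted p-values rest on a spread estimated for each gene over all 8 libraries, 2 per group, and drawn towards that of other genes. The standard errors were worked back from the log2 fold change and the test statistic.

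Genes named were, among tested genes of the set, the 6 largest falls and 6 largest rises called in each state and the 6 smallest p of the difference (each at a mean of at least 1 FPKM), the 5 highest levels, the genes in the 5 widest NT peaks, and the members of each gene list (the 3 most abundant where more than 10). Other genes with RNA values, among them TRIM14, TRIM35, UBE2Q2, RAB11FIP5 and GRAMD2B, were named after their values were seen. Alternatives were DESeq2 1.42.0, its size factors, library size, other filters, limma 3.58.1 on log2(FPKM + 1) and log2(FPKM + 0.1), a replicate block, other gene assignments and leaving out each library. Python 3.11.15, numpy 2.4.6, pandas 2.3.3 and matplotlib 3.10.9 were used.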

Additional observations from a re-analysis of the deposited data

Results flagged for a closer look

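The TPL effect differed between TAM and NT cells, at an adjusted p of at most 0.05 in the direct test of the difference (edgeR's quasi-likelihood test), for 15 genes of the set with a mean of at least 1 FPKM. The effect was lower in TAM cells for NEDD4L (-2.71 on the log2 scale), ABTB3 (-2.82), PFKFB3 (-2.08), WWC1 (-1.81), FAM110C (-2.22), LAMB1 (-1.87), IFNGR1 (-1.5), TLCD1 (-1.81), EGLN3 (-2.70) and HOOK2 (-1.44). It was higher in TAM cells for LAMB3 (2.41), NT5E (2.19), MLKL (1.77), ITGA5 (1.25) and GRAMD2B (1.78). MLKL, the protein that breaks the membrane in necroptosis, had 22.7 and 22.7 FPKM without TPL and 3.59 and 3.42 with it in NT cells, and 40.9 and 45.0 without and 22.8 and 22.2 with it in TAM cells (adjusted p = 0.00639). ITGA5, the fibronectin receptor chain, had 74.9 and 76.3 FPKM without TPL and 31.1 and 25 with it in NT cells, and 139 and 127 without and 122 and 120 with it in TAM cells (adjusted p = 0.0299). FAM110C had 1.6 and 1.86 FPKM without TPL and 0.840 and 0.650 with it in NT cells, and 31.4 and 26.6 without and 3.08 and 2.53 with it in TAM cells (adjusted p = 0.0114). IFNGR1 had 22.7 and 24.3 FPKM without TPL and 16.1 and 10.8 with it in NT cells, and 58.6 and 61.9 without and 12.2 and 12.7 with it in TAM cells (adjusted p = 0.0290). PFKFB3, NEDD4L, TLCD1 and HOOK2 each have another start in an NT + TPL peak. Over the alternatives run, the adjusted p of the difference reached 0.0522 for LAMB3, 0.0586 for NT5E and 0.0524 for WWC1. That range was worked out only for these genes and for NEDD4L, ABTB3 and PFKFB3. How the other genes listed here hold under the alternatives is not given.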

How the results depend on the processing

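The 514 peaks became 524 with an overlap of 50% of the shorter peak, 450 with no NT + TPL peak within 1000 bases, 483 as merged intervals and, counted in the TAM list after seeing the data, 572. Of calls, 103 for TPL in NT cells became 275 at an adjusted p of 0.05 and 46 with rows as deposited (added after seeing the data). For TPL in TAM cells 105 became 264, 36, and 68 and 63 with limma on log2(FPKM + 1) and log2(FPKM + 0.1). For TAM against NT, 30 with DMSO became 81, 15 and 18 with limma on log2(FPKM + 0.1), and 22 with TPL became 97, 8, 14 and 14 with limma, 40 with DESeq2 and 41 with no filter. The 81 were 64 higher and 17 lower, and the 97 were 58 higher and 39 lower, with the shares over all genes given above. For the difference of effects 1 became 15 at 0.05, 12 with DESeq2, 10 with no filter, and 0 by library size only, the replicate block, limma on either scale, rows as deposited or no start in an NT + TPL peak. At an unadjusted p of 0.05 the fit reported had 86 in the set, beside 1918 of all 15754 genes. Leaving out 1 library gave 64 to 144, 31 to 126, 13 to 37, 8 to 33 and 0 to 7 calls in the order TPL in NT, TPL in TAM, TAM with DMSO, TAM with TPL and difference, with 1 library then assumed to vary like the others. Where causes are not given by fewer samples or a looser threshold, the cause was not tested.

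The replicate numbers are only shared numbers in the labels. Deviations of same-numbered libraries correlated between -0.245 and 0.0759, and with the replicate block calls were 87, 78, 21, 15 and 0 in the same order. Of 46 results for named genes, 331 of 363 values under other settings kept direction and side of the threshold, 22 fell below it, 10 passed it and 0 changed sign. With a library left out 41 of 368 values fell below it, 12 passed it and 3 changed sign: GRINA (-0.02 to 0.29 over the libraries left out) and IFITM3 (-0.08 to 0.25) in TAM cells, both without TAM + TPL replicate 1, and MALAT1 (-0.45 to 1.63) in NT cells without NT + TPL replicate 2. Peak loss has no replicate or depth behind it here.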
